A study of Homo sapiens with 15 samples.

Results

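The comparison described here is filtered against unfiltered HDM of DiFi, a long-established line grown from a human colorectal cancer, and it asks which mature miRNAs differ in their share of the small RNA counts. It holds 4 libraries of the 14 with a column in the table, chosen by their titles: filtered HDM of HF6 and HF7 and unfiltered HDM of HF6 and HF7, so 2 libraries a group. All 4 carry the same cell line label with no stated treatment, and per the labels' protocols their RNA came through miRNeasy columns and NEXTflex small RNA libraries. The labels spell out neither HDM nor HF, and give no pore size of the filter and no culture time. They do not say whether HF6 and HF7 are separate cultures, so the p-values reflect the spread of these libraries alone, which may be technical. The other libraries of the series, used here for context, are 2 cell pellets, 6 samples labelled as plate cells, and single libraries labelled HDM media and regular media. The HDM medium without cells was not analysed here, so no medium background stands beside these values.

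A miRNA is cut from a hairpin precursor, whose arms are called 5p and 3p. The arm that is loaded into an Argonaute protein guides it to messenger RNAs through its seed, bases 2 to 8. Outside cells, miRNAs travel in vesicles, in Argonaute complexes and in non-vesicular particles such as the supermeres named in the series title. Filtration of a conditioned medium holds back material larger than the pores, such as cells and debris, and lets smaller carriers through.

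The filtered libraries held 2479953 (HF6) and 1712734 (HF7) counts, and the unfiltered ones 2256525 and 205747, so unfiltered HF7 was by far the shallowest. An entry with 3 counts, used as the floor, stands at 1.21, 1.75, 1.33 and 14.6 CPM, each library scaled to the same total in that order. Every value is a share of reads, so that a loss of one miRNA and a gain of the others cannot be told apart. The 8 gut epithelial miRNAs, such as miR-192-5p and miR-200b-3p, summed to 232220 and 258784 CPM in filtered and 242280 and 234784 CPM in unfiltered HDM. Some defining markers of other tissues were near 0 and others were not. miR-122-5p of liver had 0 or 1 count, miR-486-5p of red cells, miR-143-3p of smooth muscle and miR-124-3p of neurons had 0 in every library, and miR-223-3p of myeloid cells had at most 1. In the order of the library totals, miR-126-3p of endothelium had 32, 25, 67 and 3 counts, miR-9-5p of neural cells 54, 30, 42 and 10, miR-128-3p, which neural cells also make, 1861, 1227, 1106 and 122, and miR-142-3p of blood-forming cells 2291, 1808, 4478 and 307. The part of other cell types in the results was not tested.

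Of 420 miRNAs that passed the low-count filter, 13 fell in filtered HDM and 1 rose (edgeR quasi-likelihood test on these 4 libraries, Benjamini-Hochberg adjusted p under 0.05, called miRNAs below). The share called was 3.33% in either direction, 3.1% lower and 0.238% higher. Among the called miRNAs, the largest decreases by fold were let-7i-3p, the lesser arm of the let-7i hairpin, 3.76-fold lower, miR-12136 at 3.32-fold lower, and miR-146a-5p, a feedback inhibitor of innate immune signalling through IRAK1 and TRAF6, 3.06-fold lower. miR-141-3p of the miR-200 family, which keeps cells epithelial by repressing ZEB1 and ZEB2, was 2.8-fold lower, and miR-32-5p 2.57-fold lower. The remaining decreases were miR-142-5p, miR-21-3p, miR-141-5p, miR-140-5p, miR-22-3p, miR-210-3p, miR-96-5p and miR-20a-3p, from 2.16-fold to 1.72-fold. miR-4497 was the miRNA that rose, 3.53-fold.

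The sequences below are those of the 5 largest decreases and the increase, each followed by miRNAs that share its seed or nearly so and were not called, since the contrast between such relatives is described further on. They are printed 5′ to 3′ as the deposited table gives them, with U for T, and capitals mark the seed. Of the 14 called miRNAs, 12 have an entry in the RefSeq table of GRCh38.p14, with the same sequence. Each of the 14 has 1 location in the table, and none is within 1 mismatch of another entry.
let-7i-3p: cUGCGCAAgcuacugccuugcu
miR-12136: gAAAAAGUcauggaggcc
miR-146a-5p: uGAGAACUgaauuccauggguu
miR-146b-5p: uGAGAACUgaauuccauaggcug
miR-141-3p: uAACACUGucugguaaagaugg
miR-200a-3p: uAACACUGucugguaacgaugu
miR-200c-3p: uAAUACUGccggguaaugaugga
miR-32-5p: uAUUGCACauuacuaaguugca
miR-25-3p: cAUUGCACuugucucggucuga
miR-92a-3p: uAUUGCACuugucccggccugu
miR-4497: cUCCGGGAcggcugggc
In GRCh38, with GENCODE 29 for the genes, let-7i-3p lies at chr12:62603747-62603768 on the plus strand in MIRLET7I. miR-146a-5p lies at chr5:160485372-160485393 on the plus strand in MIR146A and an exon of the lincRNA MIR3142HG. miR-141-3p lies at chr12:6964155-6964176 on the plus strand in MIR141, within an intron of MIR200CHG. miR-32-5p lies at chr9:109046272-109046293 on the minus strand in MIR32, within an intron of the protein-coding gene TMEM245. miR-4497 lies at chr12:109833350-109833366 on the plus strand in MIR4497, opposite an exon of TRPV4. miR-12136 is placed at chr1:632668-632685 on the minus strand, in an intron of the pseudogene AL669831.3 and in no annotated miRNA gene. Its 18 bases are also an exact part of MT-TS1, a mitochondrial serine transfer RNA, the 1 gene among GENCODE transcripts that holds them, so reads of that transfer RNA and of the miRNA cannot be told apart by sequence.

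The levels of the called miRNAs stood as follows, in CPM after TMM normalisation, a scaling that assumes most miRNAs unchanged, and with HF6 before HF7. let-7i-3p was at 16.3 and 16.8 in filtered and 62.4 and 62.0 in unfiltered HDM, a log2 fold of -1.91 ± 0.23 (edgeR adjusted p = 0.000718). Here and below, the value after ± is a standard error worked back from the fold and its F statistic in the edgeR fit. The libraries of each group were close to each other and the groups were far apart, although unfiltered HF7 rests on 13 counts. miR-12136 was at 1322 and 1808 against 4768 and 5636, a log2 fold of -1.73 ± 0.19 (edgeR adjusted p = 0.000685). miR-146a-5p was at 123 and 105 against 394 and 272, a log2 fold of -1.62 ± 0.20 (edgeR adjusted p = 0.000718). Both unfiltered libraries were above both filtered ones for these miRNAs, as for all 14 called ones in the direction of the call.

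miR-141-3p was at 1157 and 1545 CPM in filtered and 4206 and 3326 in unfiltered HDM, with a log2 fold of -1.49 ± 0.19 (edgeR adjusted p = 0.000888). miR-141-5p, the lesser arm of the same hairpin, was at 30.6 and 38.0 against 74.8 and 62.0, at -1.09 ± 0.22 (edgeR adjusted p = 0.0161). Both arms of this hairpin passed the test in the same direction, but miR-141-5p was not called by DESeq2 (adjusted p = 0.13) or after thinning to equal totals (edgeR adjusted p = 0.152). miR-32-5p was at 64.5 and 58.5 against 166 and 138, at -1.36 ± 0.19 (edgeR adjusted p = 0.00103). miR-142-5p, made in blood-forming cells and here found in a carcinoma line, was at 374 and 474 against 881 and 959, at -1.11 ± 0.18 (edgeR adjusted p = 0.00473). Its 4 libraries hold 940, 761, 2048 and 201 counts, so that even the shallow one is well above the floor.

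miR-21-3p, the lesser arm of the hairpin that gives the abundant miR-21-5p, was at 227 and 316 CPM in filtered and 572 and 596 in unfiltered HDM. miR-22-3p, from an exon of the host transcript MIR22HG, was at 495 and 725 against 1361 and 1098. miR-210-3p, which hypoxia switches on, was at 85.6 and 112 against 188 and 205. These 3 had log2 folds of -1.10 ± 0.20, -1.03 ± 0.21 and -0.97 ± 0.19, with edgeR adjusted p of 0.00817, 0.0166 and 0.0161. miR-96-5p, from the miR-183 cluster that is active in sensory cells and many carcinomas, was at 442 and 409 against 804 and 644. miR-20a-3p, a lesser arm of the miR-17-92 cluster, was at 250 and 260 against 488 and 348. miR-140-5p, from an intron of WWP2 and best known from cartilage, was at 31.8 and 26.8 against 69.2 and 38.2, with 8 counts in unfiltered HF7. The last 3 had log2 folds of -0.79 ± 0.18, -0.78 ± 0.19 and -1.09 ± 0.25, with edgeR adjusted p of 0.0295, 0.0467 and 0.0303. They lie nearest to the threshold among the decreases. Each of these 3 kept its call in 1 of the 4 fits that leave out a library, the one without unfiltered HF7.

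miR-4497, a short GC-rich entry, was at 23.5 CPM (HF6) and 28 CPM (HF7) in filtered and 6.88 and 9.54 in unfiltered HDM, a log2 fold of 1.82 ± 0.37 (edgeR adjusted p = 0.0161). It rests on 59 and 45 counts against 16 and 2. By library totals the ratio was 3.36 in HF6, with an exact 95% interval of 1.91 to 6.25, and 2.7 in HF7, with an interval of 0.706 to 23. These intervals cover counting error only, and the one for HF7, whose unfiltered library is below the floor of 3 counts, includes a ratio of 1. Among the called decreases, the HF7 intervals of miR-141-5p, 0.306 to 1.12, and miR-140-5p, 0.3 to 1.59, include 1 too. They rest on 13 and 8 counts in unfiltered HF7. The intervals of the other decreases do not include 1. miR-4497 kept its call in 1 of the 4 fits that leave out a library, the one without unfiltered HF7, with edgeR adjusted p of 0.0709, 0.152 and 0.749 without filtered HF6, filtered HF7 and unfiltered HF6.

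**Figure D1:**
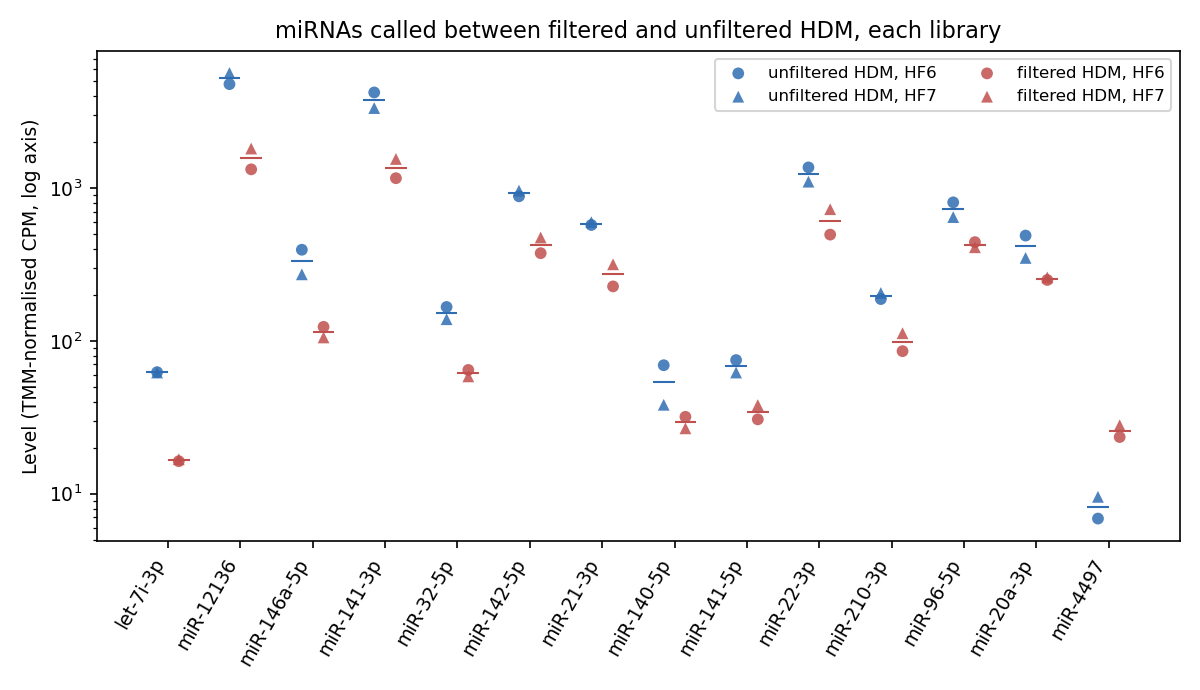
Level of each of the 14 called miRNAs in the 4 libraries (TMM-normalised CPM, log axis), ordered by log2 fold, with blue for unfiltered and red for filtered HDM, circles for HF6, triangles for HF7 and short lines for group means. The groups do not overlap for any of the 14, as for let-7i-3p at 16.3 and 16.8 against 62.4 and 62.0 CPM.

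**Figure D2:**
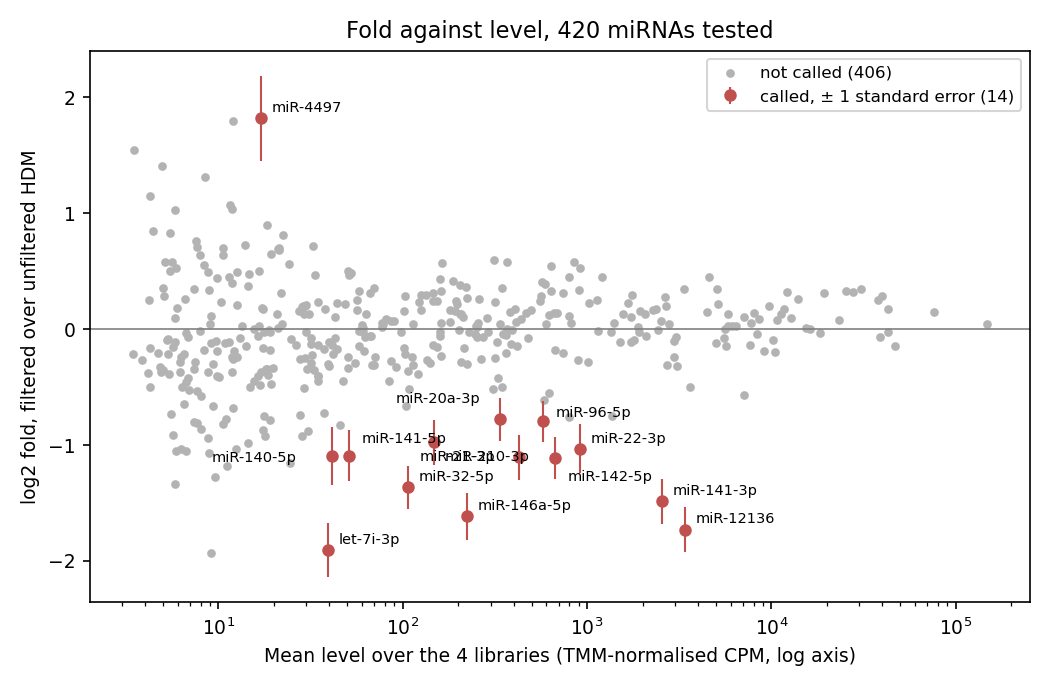
Log2 fold of filtered over unfiltered HDM against the mean level of the 4 libraries (log axis) for 420 miRNAs, with the 14 called ones in red with 1 standard error. Called decreases run from let-7i-3p at -1.91 to miR-20a-3p at -0.78, and most other miRNAs lie near 0 at high levels.

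Groups of 2 libraries did not overlap for 175 of the 420 miRNAs (41.7%), 87 lower (20.7%) and 88 higher (21%) in filtered HDM, so a lack of overlap by itself is common and even in both directions. With 2 against 2 an exact permutation test cannot give a two-sided p below 0.333. At an unadjusted edgeR p under 0.05 there were 62 (14.8%), of which 39 were lower (9.29%) and 23 higher (5.48%). The fitted fold was below 1 for 222 (52.9%), and it was at least 2 in either direction for 29 (6.9%). The calls end when all 12 replicated libraries of the series are fitted together, where none of 535 miRNAs was called. At an unadjusted edgeR p under 0.05 there were 10 in that fit, and DESeq2 on the 4 libraries called 22. The 14 had edgeR adjusted p from 0.689 to 0.999 in the joint fit, with standard errors between 0.376 and 0.952. The joint fit also takes its spread from pellets and plate cells, with plates 1, 2 and 3 of an HF number as replicates. Such plates can differ widely, as for miR-146a-5p at 2777, 566 and 454 CPM on the HF6 plates. They can also be close, as for let-7i-3p at 45.6, 35.6 and 36.9 and miR-142-5p at 1453, 1313 and 1397 there. On the HF7 plates let-7i-3p was at 43.9, 25 and 27.8 and miR-142-5p at 1518, 725 and 1080. Both lost their calls in the joint fit as well (edgeR adjusted p = 0.689 and 0.999). The joint fit thus does not measure the spread of the HDM libraries alone, and the part of this in the lost calls was not tested. Without filtered HF6, unfiltered HF6 or unfiltered HF7 the 4-library fit called 5, 8 and 30 miRNAs, and let-7i-3p, miR-12136, miR-146a-5p and miR-141-3p were the 4 called whichever single library was left out. miR-142-5p, miR-21-3p, miR-210-3p and miR-22-3p lost their calls without filtered HF6, miR-32-5p lost its call without unfiltered HF6, and miR-141-5p kept its call only without unfiltered HF7.

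The ratio of filtered to unfiltered HDM can be formed once for HF6 and once for HF7, from libraries that are not shared. All 14 called miRNAs had the same sign in both, and the HF6 ratio was the larger in size for all 14. The 14 were called from these same 4 libraries, and their groups do not overlap. The shared sign follows from that and is not a replication. How far the choice of the 14 shaped the larger HF6 ratios was not tested. For miR-12136 the log2 ratio was -1.85 in HF6 and -1.64 in HF7, and for let-7i-3p -1.93 and -1.88. For miR-141-3p it was -1.86 and -1.11, and for miR-22-3p -1.46 and -0.60, so these decreases were much smaller in HF7. Among the 283 miRNAs whose mean reached 20 CPM, 74 were lower in both, 87 higher in both and 122 had opposite signs. The ratios of HF6 and HF7 had a Pearson correlation of 0.347 and a Spearman correlation of 0.216 across these miRNAs, which are not independent replicates and share a depth within each library.

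**Figure D3:**
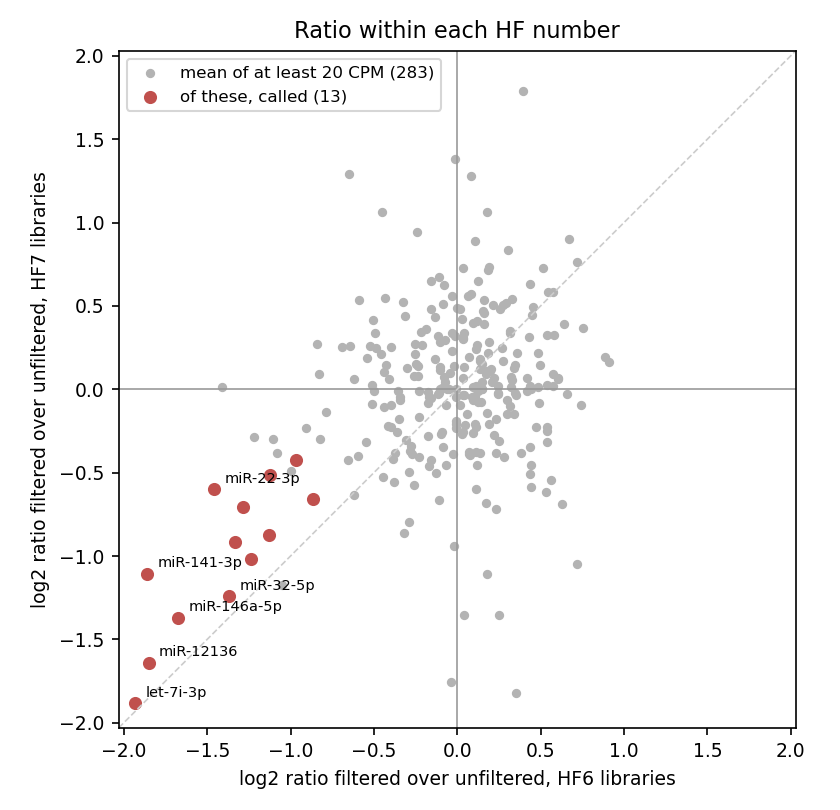
Log2 ratio of filtered over unfiltered HDM in the HF6 libraries against that in the HF7 libraries for the 283 miRNAs whose mean reached 20 CPM, with a dashed line of equal ratios. The called miRNAs among them (red) are negative on both axes, such as miR-12136 at -1.85 and -1.64, and lie on the side of the larger HF6 ratio. The calls used these same libraries, so this is a description.

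miRNAs that share a hairpin, a cluster or a seed with a called miRNA are given beside it. In the let-7i hairpin the major arm let-7i-5p stood at 2488 and 2322 CPM in filtered and 1945 and 2376 in unfiltered HDM, a log2 fold of 0.17 ± 0.17. let-7i-3p thus made up 0.652% and 0.719% of the counts of both arms in filtered HDM and 3.11% and 2.54% in unfiltered HDM. miR-32-5p made up 27.7% and 28.7% of its hairpin in filtered HDM against 55.6% and 50.9%, and miR-32-3p had a log2 fold of 0.24 ± 0.18. miR-21-3p made up 0.175% and 0.185% against 0.381% and 0.419%, next to miR-21-5p at 0.04 ± 0.14. miR-20a-3p made up 1.81% and 1.52% against 3.52% and 2.8%, next to miR-20a-5p at 0.26 ± 0.16. In these 4 hairpins both filtered libraries were below both unfiltered ones. The called arm of each was chosen for its fall in these same libraries, so this order is a description and was not tested.

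For miR-140-5p the shares overlapped, at 8.87% and 6.31% in filtered and 16.8% and 8.79% in unfiltered HDM, next to miR-140-3p at 0.00 ± 0.18. miR-22-3p made up 86.8% and 92.9% of its hairpin in filtered and 96.2% and 95.8% in unfiltered HDM, with miR-22-5p at 0.33 ± 0.23. miR-142-5p held 29.1% and 29.6% against 31.4% and 39.6%, and miR-210-3p 95.1% and 94.7% against 97.1% and 97.7%. Within the miR-141 hairpin the lesser arm miR-141-5p went the other way, with 2.58% and 2.4% in filtered and 1.75% and 1.83% in unfiltered HDM. The other arm, miR-142-3p, was at 912 and 1126 CPM in filtered and 1926 and 1465 in unfiltered HDM, a log2 fold of -0.75 ± 0.19 that just missed the threshold (edgeR adjusted p = 0.0584).

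**Figure D4:**
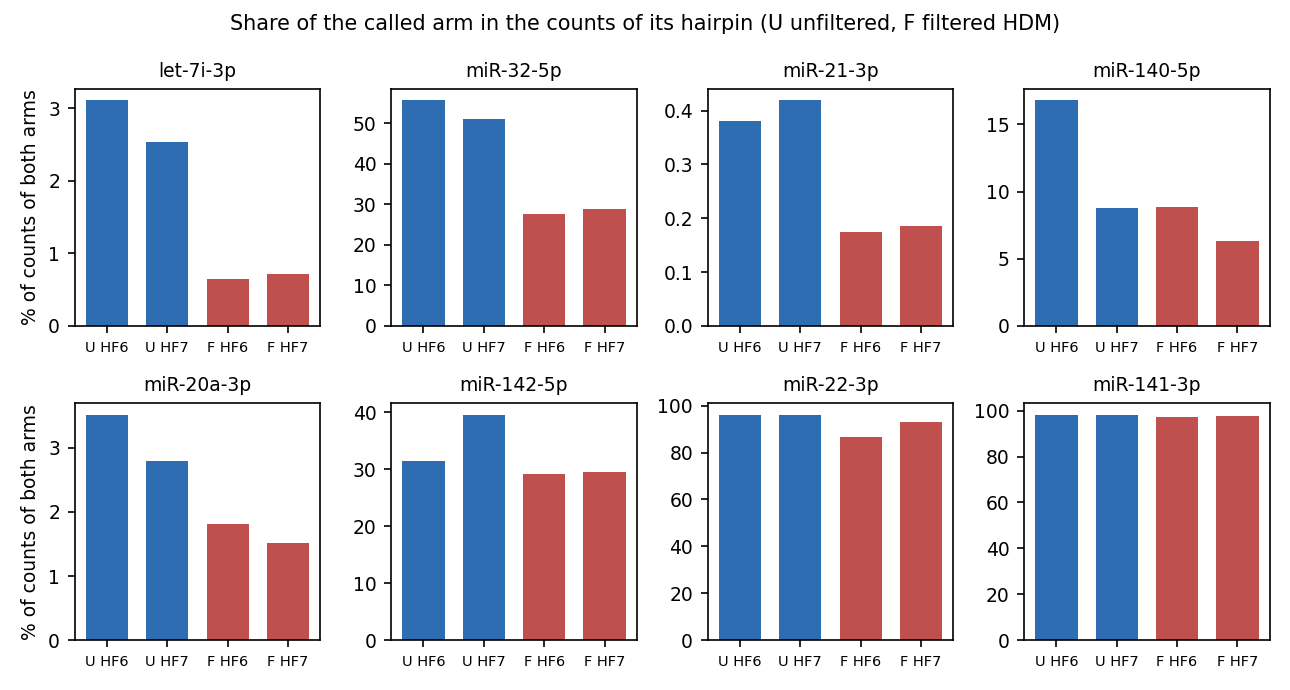
Share of the called arm in the counts of both arms of its hairpin, in percent, for 8 hairpins in unfiltered (U, blue) and filtered (F, red) HDM of HF6 and HF7, each panel with its own axis from 0. Shares are lower in both filtered libraries for 7 of the 8, as for miR-32-5p at 27.7% and 28.7% against 55.6% and 50.9%. They overlap for miR-140-5p. The 8 are a selection, and each arm was called for its fall in these same libraries, so the count is a description. Shares over all hairpins were not worked out. miR-141-5p, also called but not drawn, had higher shares in filtered HDM, at 2.58% and 2.4% against 1.75% and 1.83%.

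The values of relatives by seed or cluster follow. miR-200a-3p has the seed of miR-141-3p printed above but stood at 0.08 ± 0.15, with 23052 and 24871 CPM in filtered and 24803 and 20462 in unfiltered HDM. miR-200c-3p, which is cut from the same transcript as miR-141-3p, stood at -0.07 ± 0.13. miR-25-3p and miR-92a-3p, with the seed of miR-32-5p, stood at 0.03 ± 0.17 and 0.25 ± 0.13. miR-146b-5p, with the seed of miR-146a-5p, was at 188 and 224 CPM against 219 and 177, at -0.01 ± 0.18. In the cluster of miR-96-5p, miR-182-5p and miR-183-5p stood at -0.14 ± 0.18 and -0.02 ± 0.18. miR-19b-1-5p, of the cluster that holds miR-20a-3p, had the fold farthest from 0 among the relatives, at -1.15 ± 0.30 (edgeR adjusted p = 0.0651). None of these relatives was called, where 3.33% of all 420 were, and the difference between a called miRNA and its relative was not tested.

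The leukocyte list, miRNAs of blood cells that some carcinoma lines also make, had 2 of 5 tested members lower, miR-146a-5p and miR-142-5p, and none higher, where 3.1% of all 420 were lower. Its median log2 fold was -0.75, against -0.025 over all 420 miRNAs, and the summed level was 1715 and 2016 CPM in filtered and 3470 and 3073 in unfiltered HDM. miR-155-5p, of activated lymphocytes, was at 231 and 261 CPM against 214 and 305, and miR-150-5p, of resting lymphocytes, stood at 0.13 ± 0.24. The list's median thus stands below that of all miRNAs while 2 of its 5 members lie near 0, and miR-223-3p was at or near 0.

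The miR-200 family had 2 of 9 tested members lower, both arms of miR-141, beside 3.1% of all 420, with a family median of 0.05 (-0.03 under scaling by total counts) and a summed level of 151180 and 163159 CPM against 148081 and 152914. miR-200b-3p, its most abundant member, was at 76086 and 83286 against 66441 and 77151. The family's summed level in filtered HDM therefore overlapped with that in unfiltered HDM. Of the 6 members of the miR-183 cluster 1 was lower (miR-96-5p), of 7 hypoxia-linked miRNAs 1 (miR-210-3p), and of 4 miRNAs of the miR-25, miR-32 and miR-92 seed family 1 (miR-32-5p). Counts of 1 in lists this small are not read as different from the 3.1% lower among all 420. Entries listed under other RNA classes had 1 lower (miR-12136) and 1 higher (miR-4497) of 22, beside 3.1% lower and 0.238% higher of all 420. Their sums were 5261 and 6094 CPM in filtered and 7878 and 8976 in unfiltered HDM. miR-12136 has an exact match in MT-TS1, but among GENCODE transcripts miR-4497 matched only its own gene, MIR4497. In that list miR-1246, an entry within U2 small nuclear RNA sequence that has been described in extracellular particles, was at 712 and 595 against 615 and 577, at 0.12 ± 0.17.

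The called let-7i-3p is not in the let-7 list, and none of that list's 9 members was called. Their fitted folds ran from 0.03 to 0.35 with a median of 0.17, and their sum was 128059 and 108376 CPM in filtered and 85350 and 108723 in unfiltered HDM. Unfiltered HF6 was the low library and filtered HF6 the high one, with both HF7 libraries between them. let-7a-5p was at 34866 and 26681 against 20876 and 28431, and let-7f-5p at 46144 and 40911 against 30929 and 40293. None of 7 tested miR-30 members was called, with a median of -0.47, nor of 7 miR-29 members, with a median of -0.26. miR-30e-5p was at 5260 and 6217 CPM against 9311 and 7654, and miR-29b-3p at 486 and 526 against 766 and 706. The lists of miR-192, miR-194 and miR-215, miR-17-92 and its paralogs, miR-221 and miR-222, miR-15/16, miR-23/27/24, miR-26, miR-148, miR-181 and miR-130 also had no member called, with medians between -0.24 and 0.15. miR-20a-3p belongs to the miR-17-92 hairpins but not to that list.

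No miRNA among the 10 most abundant was called. miR-21-5p, a miRNA often raised in carcinomas, was at 129287 and 170438 CPM in filtered and 149385 and 141867 in unfiltered HDM, so the groups overlap. miR-192-5p of gut epithelium stood at 0.17 ± 0.14, miR-29a-3p at 0.35 ± 0.14 and miR-125b-5p at 0.26 ± 0.16, and none was called. The 10 most abundant miRNAs held 52.8% and 54.2% of the counts in filtered and 52.7% and 52.6% in unfiltered HDM. When the libraries were thinned to 205747 counts each, 503 and 485 miRNAs had a count in filtered and 526 and 500 in unfiltered HDM.

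Just outside the threshold, after miR-142-3p, were miR-19b-1-5p at -1.15, miR-33a-5p at -0.83, miR-15a-5p at -0.76 and miR-374a-3p at -0.61, with edgeR adjusted p from 0.0651 to 0.0843. The groups overlap for miR-19b-1-5p, at 16.3 and 19.3 CPM against 43.4 and 19.1, and without unfiltered HF6 its fold was -0.09 (edgeR adjusted p = 0.965). Just inside the threshold was miR-20a-3p. miR-15a-5p was at 548 and 663 CPM against 1176 and 816, and miR-374a-3p at 437 and 480 against 672 and 744. The largest positive folds that were not called, among miRNAs with at least 100 CPM in a group and no overlap, were miR-629-5p at 0.60, miR-12135 at 0.58, miR-130b-5p at 0.58, miR-552-3p at 0.57 and miR-128-3p at 0.54. The largest of these was a 1.52-fold difference, against 1.72-fold for the smallest called decrease.

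The sequences of the called miRNAs were compared with those of all miRNAs tested. The GC content of the 13 that fell ran from 31.8% (miR-32-5p) to 63.6% (miR-210-3p) with a median of 45.5%, against a median of 47.8% over all 420. Across the 283 miRNAs whose mean reached 20 CPM, the Pearson correlation of GC content with the fitted log2 fold was 0.036, given as a description since these miRNAs share libraries and depth. The tetramer GGAG, in the RNA-binding motif of hnRNPA2B1, which sorts miRNAs into exosomes, was in 1 of the 13 (7.69%) and in 7.86% of all 420. The tetramer GGCU, in that of the exosomal sorting factor SYNCRIP, was in 2 of the 13 (15.4%) and in 11% of all 420. Both were searched on the miRNA strand only, and a match is not a binding site. The 13 comprised 6 arms named 5p and 6 named 3p.

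The called miRNAs were then set beside the cellular and media libraries, in CPM by library total. Both filtered libraries were below all 12 other libraries for 7 of the 13 that fell, against 20 of the 420 tested (4.76%). These were let-7i-3p, miR-141-3p, miR-32-5p, miR-142-5p, miR-141-5p, miR-22-3p and miR-96-5p. The unfiltered libraries lay within the range of the 10 cellular and media libraries for 11 of the 13, and for 66.2% of the 420. The choice of the 13 used the filtered and unfiltered values, so these counts are a description.

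miR-141-3p was at 1172 and 1449 CPM in filtered HDM by this measure, while pellets had 11604 and 11110, plate cells had between 2615 and 8975 with a median of 5711, HDM media had 5820 and regular media 3195. miR-146a-5p was at 125 and 98.7 (filtered) and 406 and 277 (unfiltered), with 5226 and 3918 in the pellets and 454 to 2777 on plates. HDM media and regular media were low for this miRNA, at 108 and 63.9, so that filtered HDM lay beside them. let-7i-3p had 38.6 and 63.8 CPM in pellets, 25.0 to 45.6 on plates, 95.2 in HDM media and 59.0 in regular media, so its filtered level of 16.5 and 15.8 was the lowest of all. miR-12136 stood at 28842 and 5089 in pellets, 1836 to 5244 on plates and 1765 and 1506 in the media libraries, and at 1339 and 1696 in filtered HDM. Both pellets were above all 4 HDM libraries for 7 of the 13, namely miR-146a-5p, miR-141-3p, miR-32-5p, miR-142-5p, miR-210-3p, miR-22-3p and miR-96-5p, and for 14.3% of the 420. miR-4497 ranged from 2.61 to 25.5 in pellets and from 5.83 to 31.2 on plates, so its filtered level was not outside the cellular range.

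**Figure D5:**
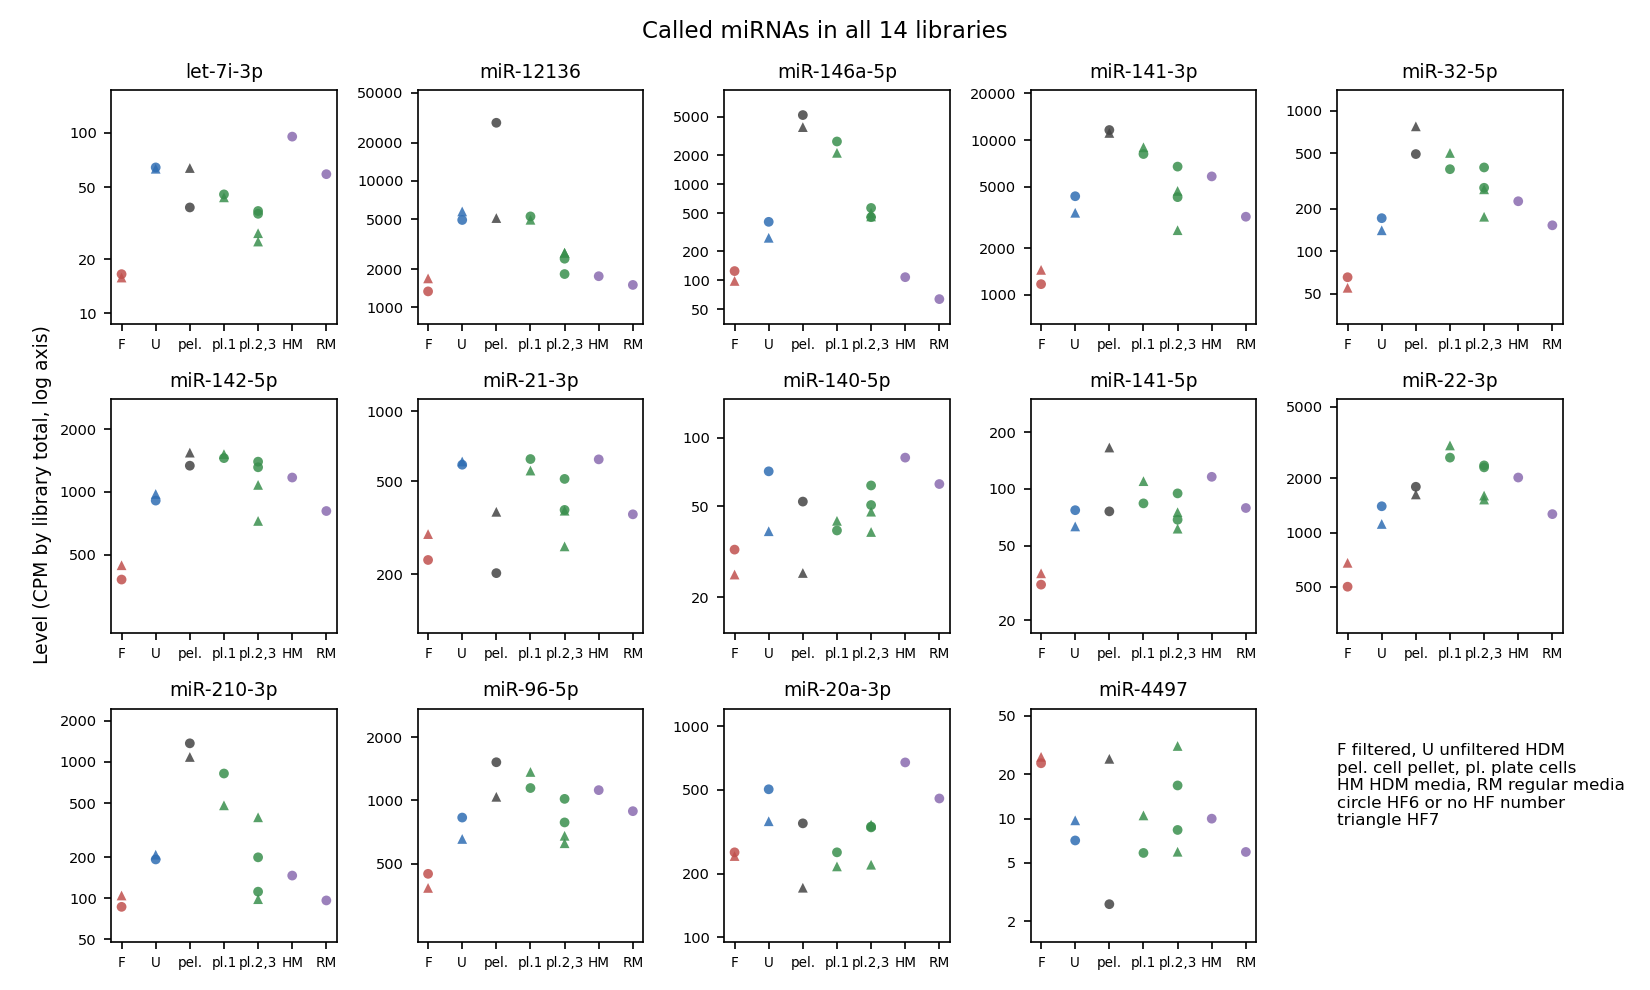
Level of the 14 called miRNAs in all 14 libraries (CPM by library total, log axis), by filtered (F) and unfiltered (U) HDM, pellets, plate cells 1, plate cells 2 and 3, HDM media (HM) and regular media (RM), with triangles for HF7. Filtered HDM is the lowest position for miR-141-3p, at 1172 and 1449 CPM, and shares the low range with the media libraries for miR-146a-5p, at 125 and 98.7 beside 108 and 63.9.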

How the data were processed

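Small RNA reads of DiFi cells and HDM samples were measured. The authors deposited 1 table of expected counts per mature miRNA, with 1619 entries and 14 sample columns. The submitters' processing notes list cutadapt 2.10, Bowtie 1.3.1 and FastQC with build GRCh38. The miRNA annotation release, mismatches allowed and the rule behind fractional values, found in 143 entries, are not given in the sources used here. Among the called miRNAs, 2 have such values (miR-146a-5p and miR-141-3p).

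Values were rounded to whole counts, since count models need them. Filtered and unfiltered HDM (2 libraries each, 205747 to 2479953 counts) were fitted alone with the quasi-likelihood test of edgeR 4.0.16, after its filterByExpr (minimum 10 counts) and with TMM factors. The model had 1 coefficient for filtration and 2 residual degrees of freedom, and its biological coefficient of variation was 0.115. The test added 9.31 prior degrees of freedom, borrowed across miRNAs, so the small p-values rest largely on that borrowing. The filter left 420 miRNAs with 99.93% to 99.94% of the counts. p-values were adjusted by Benjamini-Hochberg over all 420, and a miRNA was called under 0.05. The fit was tried on 5 sets of counts simulated with the same spread for all miRNAs, which real miRNAs need not share. It called 82.1% of miRNAs changed by a log2 fold of 1 and 99.2% of those changed by 2. A median of 3 unchanged miRNAs a set were also called. Over the 5 sets these rates rest on 487 and 483 changed miRNAs, with a median of 406 tested a set. That is a far larger changed share than the 3.33% called in the data. The Benjamini-Hochberg cutoff is looser when many are changed, so the rates may overstate recovery here. Chi-square per degree of freedom was 54.1 between the filtered and 13.3 between the unfiltered libraries, so no library is a copy of its replicate. The median absolute log2 difference over 283 miRNAs was 0.186 between the filtered and 0.251 between the unfiltered libraries. Across the groups it ran from 0.224 to 0.272, so the unfiltered libraries differed from each other about as much as from the filtered ones. Intervals from counts cover counting error only.

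Alternatives were DESeq2 1.42.0, limma-voom (limma 3.58.1), RLE factors, total counts, other count filters, thinning, the HF number as a block, a fit of all 12 replicated libraries and leaving out each library, with GC content fitted out added after seeing the data. The miRNAs named are those called, the 5 next by adjusted p, the largest uncalled folds at 100 CPM or more without overlap, the most abundant, fixed miRNAs, other arms and seed or cluster partners, and top list members. The comparison, these rules and the lists were chosen with earlier results of these data known.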

Additional observations from a re-analysis of the deposited data

How the results depend on the processing

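Against 14 calls (13 lower), DESeq2 gave 22 (17 lower, 5 higher), total counts 28 (27 lower), a filter of at least 50 counts in 2 libraries 25 (20 lower, 5 higher) and limma-voom 21 (20 lower). With the HF number as a replicate block there were 9, all lower and all among the 14. The 5 not called then were miR-4497, miR-141-5p, miR-96-5p, miR-140-5p and miR-20a-3p, with edgeR adjusted p of 0.0706, 0.086, 0.098, 0.17 and 0.17. The numbers were not treated as pairing the samples, since the labels do not say that an HF number marks a shared source. The HF6-minus-HF7 difference in filtered HDM had a correlation of -0.248 with that in unfiltered HDM over 283 miRNAs. The fit of 12 libraries, whose spread includes that of pellets and plates, gave 0 calls and 0 lower, with 10 miRNAs at an unadjusted edgeR p under 0.05. Leaving out 1 library gave 5 to 30 calls, 5 to 25 of them lower, with 5 without filtered HF6, 8 without unfiltered HF6 and 30 (25 lower, 5 higher) without unfiltered HF7. The other settings (RLE factors, no filter, thinning, no entries of other RNA classes, GC content fitted out without or with the replicate block) stayed within 1.5 times, and the GC fits were chosen after seeing the data. Similar totals need not be the same miRNAs. Thinning called 9 of the 14, and miR-141-5p, miR-210-3p and miR-20a-3p were tested there and not called. DESeq2 called 11 of the 14, and miR-141-5p and miR-140-5p were tested there and not called. Each of the 14 kept its sign in every alternative that tested it. miR-4497 had no adjusted p in DESeq2, and miR-4497 and miR-140-5p were too low to be tested after thinning, as were miR-4497 and let-7i-3p at 50 counts. Leaving out the entries listed under other RNA classes removes miR-12136 and miR-4497. Total counts moved the median fold of all miRNAs from -0.02 to -0.10.

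Among uncalled miRNAs named, folds near 0 changed sign, and the cause was not tested. Under total counts miR-21-5p was at -0.04, miR-140-3p at -0.07, miR-25-3p at -0.04 and miR-155-5p at -0.06. After thinning let-7i-5p was at -0.003, miR-32-3p at -0.05, miR-140-3p at -0.07, miR-146b-5p at 0.07, miR-25-3p at -0.06, miR-150-5p at -0.65, miR-155-5p at -0.30 and miR-552-3p at -0.07. With the replicate block miR-140-3p and miR-155-5p were both at -0.03. In the fit of 12 libraries miR-200c-3p was at 0.01, miR-146b-5p at 0.10 and miR-183-5p at 0.05. miR-140-3p was at -0.002 without a filter and -0.005 at 50 counts, and miR-146b-5p at 0.02 in DESeq2 and 0.0003 with RLE factors. With GC content fitted out, without or with the block, miR-146b-5p and miR-183-5p were at 0.03. Leaving out 1 library gave ranges of -0.15 to 0.26 for miR-21-5p, -0.09 to 0.01 for miR-200c-3p, -0.13 to 0.17 for miR-140-3p, -0.11 to 0.24 for miR-146b-5p, -0.34 to 0.08 for miR-182-5p and -0.15 to 0.12 for miR-183-5p. The ranges were -0.12 to 0.19 for miR-25-3p, -0.06 to 0.25 for miR-200a-3p, -0.19 to 0.35 for miR-150-5p and -0.30 to 0.18 for miR-155-5p.

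A fit without 1 library assumes that the lone library varies like the other group. Depth limits unfiltered HF7, where 3 counts are 14.6 CPM, so that values below that level, miR-4497 among them, rest on 2 counts or fewer there.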
